A study of Mus musculus with 21 samples.

Results

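Cysteine removal within WT liver was examined as a single comparison: 4 libraries from mice labelled WT on a diet without cysteine (WT noCys) against 3 libraries from WT mice on the control diet (WT CTR). Its members were taken by group and replicate number from the sample titles, and they make up 7 of the 21 libraries in the series. The other 14 libraries were knockouts (KO) of *Cse*, the gene whose current symbol is *Cth*, on the control diet (n = 4), without cysteine (n = 3) or without tryptophan (n = 5), and WT mice without tryptophan (WT noTrp, n = 2). The control diet was a defined amino acid diet (5CC7), and in the depleted diets the remaining amino acids were raised in proportion. All animals were at least 9 weeks old when the diets began. Per the study's methods, the knockout was on a mixed 129 and C57BL/6 background and the animals were calorie-restricted males. In the study's text the animals compared with KO are heterozygous for the deletion, so WT is the name in the labels and does not state that both alleles were intact.

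Cysteine comes from food, from breakdown of glutathione and from methionine through transsulfuration, in which cystathionine beta-synthase (*Cbs*) joins homocysteine to serine and cystathionine gamma-lyase (*Cth*) releases cysteine. The liver is the main organ of this pathway and uses cysteine for glutathione, taurine, coenzyme A and secreted proteins. Shortage of an amino acid is known to act through GCN2 and ATF4, the integrated stress response (ISR), and loss of glutathione through NRF2, the oxidative stress response (OSR). The comparison asks what dietary cysteine removal did where the enzyme that makes cysteine was still expressed.

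Total counts ran from 9410589 to 20644644 in the 7 libraries, and mitochondrial genes took 4.54% to 7.67% of them. Hepatocyte markers summed to 106100 to 124500 CPM (counts divided by the TMM-scaled total of each library) in WT CTR and 128300 to 141300 in WT noCys, as the most abundant of the marker lists, while 3 of 7 muscle and 6 of 9 pancreas markers were at 0 in all 7 libraries. WT CTR replicate 3 stood apart: ribosomal and small non-coding RNA genes, without mitochondrial transfer RNA genes, took 12.4% of its counts against 0.905% to 1.42% in the other 6. In WT CTR the ribosomal RNA gene CT010467.1 reached 1969, 1092 and 70510 CPM, against 1235, 1079, 1450 and 1476 CPM in WT noCys. The results are therefore given with and without this library. The titles number biological replicates without naming animals, so p-values measure the spread between these samples, which may in part be technical.

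The targeted gene was expressed in all 7 libraries. *Cth* (ENSMUSG00000028179, GRCm38 chromosome 3, 157894248 to 157925077, overlapping Gm43314) was at 286, 221 and 157 CPM in WT CTR and 260, 263, 253 and 225 CPM in WT noCys. The groups overlapped, and the log2 fold change was 0.17 ± 0.29 (SE), or -0.03 without WT CTR replicate 3. In KO it was at 10.5 to 14.99 CPM on the control diet and 6.34 to 8.12 CPM without cysteine, below every WT library.

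Of the 14370 genes tested, 95 were called at an adjusted p under 0.05 (edgeR's quasi-likelihood test with Benjamini-Hochberg adjustment, 0.661% of genes), 56 higher (0.39%) and 39 lower (0.271%) in WT noCys. Below, called means called by edgeR unless another tool is named. The median log2 fold change of all genes was -0.01. The 39 lower genes were of 2 kinds. A first set of 17 held ribosomal, transfer, small nuclear, small nucleolar and other small RNA genes, with *Lars2*, a mitochondrial leucyl-tRNA synthetase gene that stood on the RNA list. The remaining 22 were protein coding except Gm7652, an unprocessed pseudogene (-3.04). The RNA genes were far higher in WT CTR replicate 3 than in the other 6 libraries. *Lars2* was at 1110, 690 and 21120 CPM in WT CTR and 600.0 to 999.7 CPM in WT noCys. *Rpph1*, the RNA of ribonuclease P, was at 4.02, 1.39 and 496 CPM in WT CTR and 1.71 to 1.92 CPM in WT noCys. Their median log2 fold change was -5.46, and without that library the 15 still tested had a median of -0.19, with 10 of 15 in the same direction. All 78 other called genes kept their direction without it, at 0.837 to 1.20 times their fold change on the log2 scale, and their median absolute log2 fold change was 0.90 with the library and 0.98 without it. Their calls did depend on it. Without it 1 gene was called by edgeR (0.00698% of 14331), the matricellular protein gene *Spon2*, and the adjusted p of the 78 genes ran from 0.0474 to 0.196. Without it DESeq2 called 67, limma-voom 69 and edgeR on the 2 groups alone 46 of these 78 genes.

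**Figure D1:**
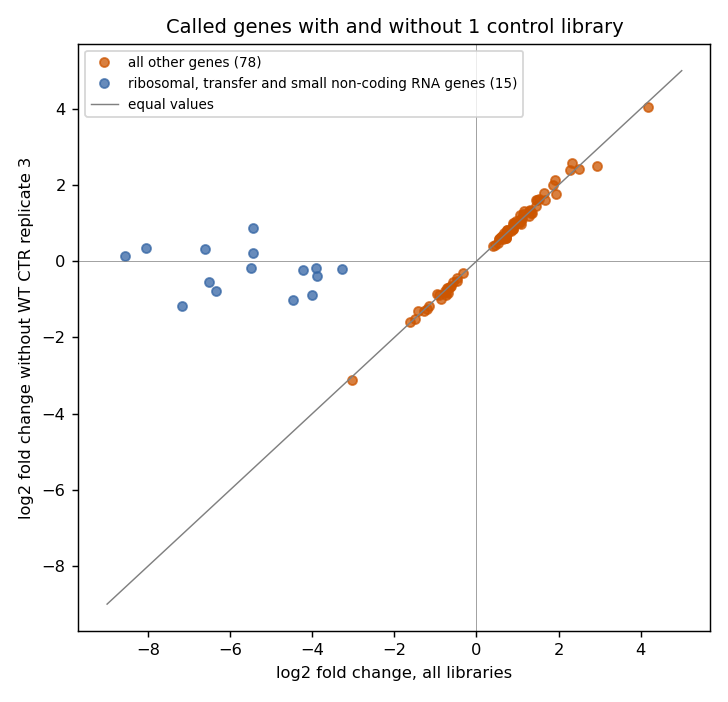
Log2 fold change of WT noCys against WT CTR for the called genes, with all 7 libraries (x axis) and without WT CTR replicate 3 (y axis). Each point is 1 gene. The 78 other genes lie close to the line of equal values, while the 15 RNA genes still tested lie near 0 on the y axis, with a median of -0.19.

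Of the 56 genes called higher, 48 were protein coding and 8 were processed pseudogenes, which share sequence with parent genes and so have uncertain counts. The 12 largest rises were *Orm2*, *Mt1*, *Dusp1*, *Sik1*, *Maff*, *Fkbp5*, *Rnd1*, *P2ry2*, *Hpx*, *Orm1*, *Rhbdf2* and *Slc2a1*, and the 12 largest falls were *Nav2*, *Spon2*, *Cyp4a12a*, *Cldn1*, *Ifi47*, *Dtx4*, *Tbcel*, *Tsc22d1*, *Nrp1*, *Adh4*, *Slc16a1* and *Appl1*. Genes with clone or predicted names and RNA genes were passed over, and every library of one group had to lie above every library of the other, which held for 1315 genes in the higher direction (9.15% of those tested) and 1041 in the lower (7.24%). In the 7 fits that each left out 1 library (leave-outs), *Rhbdf2* was called 6 times, *Orm2* 2 times, *Dusp1*, *Hpx* and *Orm1* once each and the other 7 rises 0 times. Of the falls *Spon2* was called 7 times, *Nav2* 6, *Slc16a1* 3, *Tsc22d1* 2 times, *Cyp4a12a*, *Dtx4* and *Tbcel* once each and the other 5 falls 0 times.

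**Figure D2:**
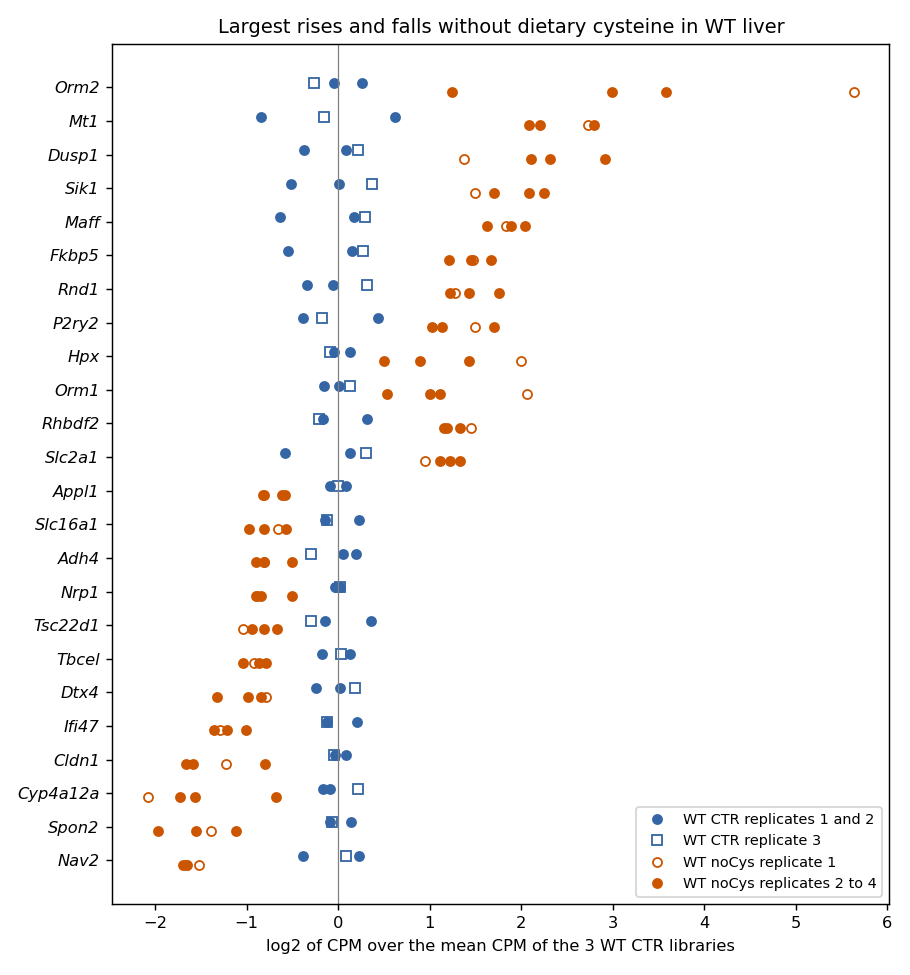
CPM of each WT library relative to the mean of the 3 WT CTR libraries, on a log2 scale, for the 12 largest rises and 12 largest falls. Blue symbols are WT CTR (open squares, replicate 3) and orange circles WT noCys (open circles, replicate 1). Replicate 1 of WT noCys was the highest for *Orm2*, *Orm1* and *Hpx* and the lowest of its group for *Dusp1*, *Sik1* and *Slc2a1*.

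Genes for proteins of the acute phase, which hepatocytes secrete in response to IL-6 and IL-1, had mostly positive fold changes. Of 35 tested genes on the list, 4 were called higher and 0 lower, 22 had an unadjusted p under 0.05 in the higher direction and 0 in the lower (all genes, 7.26% and 6.66%), and the median log2 fold change was 0.59, against -0.01 for all genes. Without WT CTR replicate 3 the median was 0.67 and 20 genes had such a p (all genes, 5.56% higher and 5.3% lower). The counts of every list below are to be read beside these shares of all genes, of which 0.39% were called higher and 0.271% lower. *Orm2*, an alpha-1-acid glycoprotein that carries drugs and lipids in plasma (ENSMUSG00000061540, chromosome 4, 63362449 to 63365878), was at 8.89, 7.19 and 6.16 CPM in WT CTR. In WT noCys it was at 370, 88.6, 59.2 and 17.5 CPM. Every WT noCys library lay above every WT CTR library, over a wide range, and the log2 fold change was 4.17 ± 0.82 (adjusted p = 0.0261 by edgeR), or 2.88 without WT noCys replicate 1. Its paralog *Orm1* (chromosome 4, 63344560 to 63348163) was at 573, 643 and 700.4 CPM in WT CTR and 2666, 1378, 1283 and 929 CPM in WT noCys, a rise of 1.29 ± 0.27 (adjusted p = 0.0323 by edgeR). The haem scavenger hemopexin, *Hpx* (chromosome 7, 105591613 to 105600137), was at 2370, 2676 and 2293 CPM and at 9776, 6607, 4542 and 3462 CPM, a rise of 1.32 ± 0.28 (adjusted p = 0.0366 by edgeR). *Itih4*, an inter-alpha-trypsin inhibitor chain, rose by 1.09 ± 0.25 (adjusted p = 0.048 by edgeR). Replicate 1 was the highest and replicate 4 the lowest WT noCys library for all 4 of these genes.

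The serum amyloid A genes, whose products bind high-density lipoprotein during inflammation, spread further. *Saa1* was at 59.3, 61.7 and 65.4 CPM in WT CTR and at 4780, 1121, 486 and 180 CPM in WT noCys, and *Saa2* at 24.5, 24.0 and 21.8 CPM and at 3950, 415, 278 and 60.5 CPM. The WT CTR libraries were tight and all 4 WT noCys libraries lay above them, yet the latter spread widely and neither was called by edgeR, at 4.72 ± 1.20 (adjusted p = 0.074 by edgeR) and 5.65 ± 1.35 (adjusted p = 0.0567 by edgeR). Without WT noCys replicate 1 they were at 3.26 and 3.41. DESeq2, limma-voom and edgeR on the 2 groups alone called both. *Saa3* (2.75, adjusted p = 0.0884 by edgeR) was at 106 CPM in replicate 1 and 6.10 to 15.8 CPM in the other 3, and at 0.89 on the log2 scale without replicate 1, and *Saa4* (0.82) and *Orm3* (1.70) were not called. Of genes chosen after their values were seen, haptoglobin (*Hp*) was at 1.14 and the siderophore binder *Lcn2* at 4.85. Neither was called by edgeR and both were by DESeq2. *Lcn2* was at 530 CPM in WT noCys replicate 1 and 18.4 to 49.3 CPM in the other 3, and its log2 fold change was 2.496 without that library. Without WT noCys replicate 1 the list's median was 0.52 and 17 genes had an unadjusted p under 0.05. Some members of the *Saa* and *Orm* families are close in sequence, above all *Saa1* and *Saa2*, so reads may be divided among the closest ones. Neutrophil and monocyte markers summed to 2.67 to 4.25 CPM in WT CTR and 4.37 to 7.002 CPM in WT noCys, and Kupffer cell markers to 167 to 261 and 212 to 348 CPM; their part in these values was not tested.

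**Figure D3:**
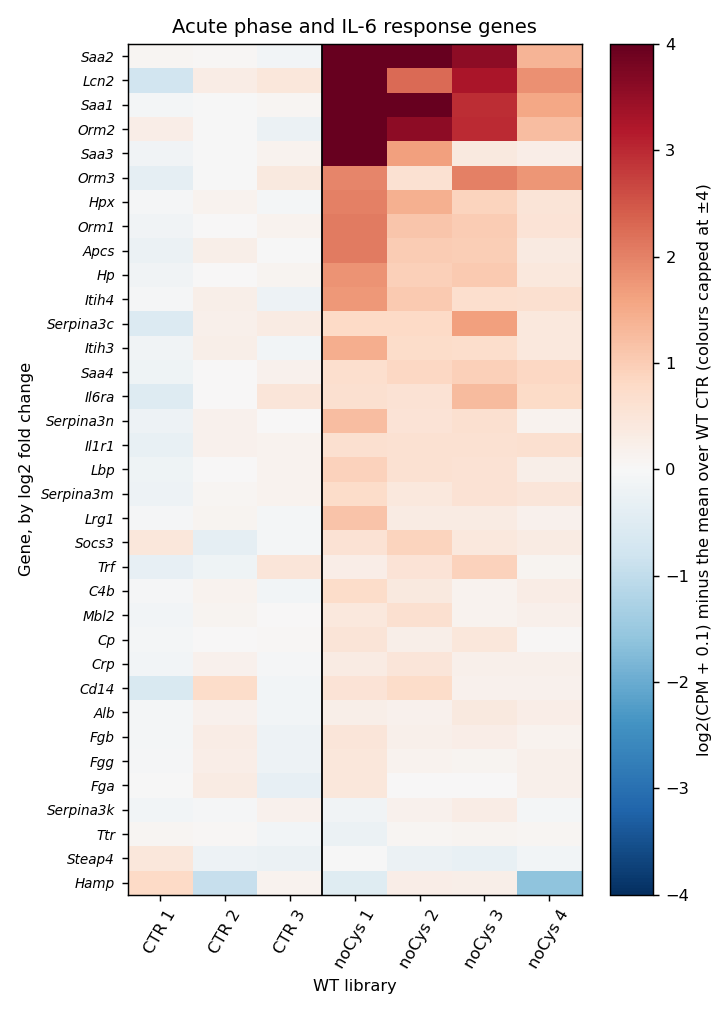
Log2(CPM + 0.1) of the 35 tested acute phase and IL-6 response genes in each WT library, minus the mean over the 3 WT CTR libraries (colours capped at ±4). Rows are genes in order of log2 fold change and the black line divides WT CTR from WT noCys. Replicate 1 of WT noCys is the most strongly coloured column, and 33 of 35 genes have a positive fold change.

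Metallothioneins, small cysteine-rich proteins that bind zinc and copper and whose genes also answer to glucocorticoids, had higher values at both tested genes of the *Mt1* and *Mt2* pair. *Mt1* (ENSMUSG00000031765, chromosome 8, 94179082 to 94180327) was at 72.1, 199 and 117 CPM in WT CTR and 860, 596, 901 and 548 CPM in WT noCys, a rise of 2.49 ± 0.57 (adjusted p = 0.0497 by edgeR). The neighbouring *Mt2* (94172664 to 94173568) was at 15.1, 76.2 and 31.9 CPM and at 564, 225, 684 and 318 CPM, or 3.44 ± 0.80, just outside the threshold (adjusted p = 0.051 by edgeR). For both genes every WT noCys library lay above every WT CTR library. *Mt1* lost its call whichever of the 7 libraries was left out, while its log2 fold change stayed between 2.20 and 2.94. Of the 18 tested metallothionein, zinc and iron genes 1 was called, 4 had an unadjusted p under 0.05 in the higher and 3 in the lower direction, and the median was -0.01. The transferrin receptor *Tfrc* (0.94) and the metal exporter *Slc30a10* (-1.01), chosen after their values were seen, were not called by edgeR but were by DESeq2 and limma-voom.

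The promoters of both genes are shown because metal-responsive elements, whose core was searched as TGCNCNC on either strand, are known to control this family. The 250 bases before the RefSeq start are given (GRCm38.p6, 5′ to 3′ on the gene's strand), with core matches in capitals: chr8:94178839-94179088 on the + strand for *Mt1*, with 1 match, and chr8:94172368-94172617 on the + strand for *Mt2*, with 5 matches.
Mt1: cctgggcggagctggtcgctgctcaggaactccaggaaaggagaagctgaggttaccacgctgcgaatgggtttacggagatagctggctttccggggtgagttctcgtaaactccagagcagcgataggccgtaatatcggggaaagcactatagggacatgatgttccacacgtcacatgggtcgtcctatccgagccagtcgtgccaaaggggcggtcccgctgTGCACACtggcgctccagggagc
Mt2: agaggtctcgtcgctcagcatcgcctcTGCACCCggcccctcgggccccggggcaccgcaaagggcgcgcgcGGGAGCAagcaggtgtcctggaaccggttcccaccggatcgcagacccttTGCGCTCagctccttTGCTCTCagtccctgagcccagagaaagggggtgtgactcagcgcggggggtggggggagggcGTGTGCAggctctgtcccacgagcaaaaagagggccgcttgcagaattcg
The match counts hold for these windows, set by the 1 start listed for each gene, and sequence outside them was not searched. This short core was found in 44.4% of the 32851 promoters, 56.6% of tested genes, 62.5% of the higher genes and 64.7% of the lower genes with an entry.

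Immediate early genes, which encode transcription factors, phosphatases and RNA-binding proteins induced within minutes of a signal, gave 4 calls, all higher. Of 29 tested, 11 had an unadjusted p under 0.05 in the higher and 1 in the lower direction (all genes, 7.26% and 6.66%), and the median was 0.65, also without WT CTR replicate 3. *Dusp1*, the phosphatase that switches off p38 and JNK (ENSMUSG00000024190, chromosome 17, 26505590 to 26562128 in the annotation, overlapping *Ergic1*), was at 29.2, 21.3 and 31.8 CPM in WT CTR and 71.2, 137, 207 and 119 CPM in WT noCys. It rose by 2.28 ± 0.44 (adjusted p = 0.0261 by edgeR). *Maff*, a small MAF protein that pairs with NRF2 or represses alone, was at 4.87, 8.58 and 9.29 CPM and at 26.96, 23.4, 28.0 and 31.2 CPM, a rise of 1.85 ± 0.41 (adjusted p = 0.0411 by edgeR). Without WT CTR replicate 3 the fold changes were 2.40 and 2.002. Replicate 1 of WT noCys was the lowest of its group for *Dusp1* and in mid-range for *Maff*. *Ier2* rose by 0.86 (adjusted p = 0.0261 by edgeR) and *Zfp36l1*, which destabilises AU-rich mRNAs, by 0.75 (adjusted p = 0.0362 by edgeR). *Fos* (2.64) and *Jun* (1.90), chosen after their values were seen, were not called by edgeR but were by DESeq2. *Jun* was at 114 CPM in WT noCys replicate 3 and 15.4 to 43.8 CPM in the other 3, which overlapped WT CTR (9.74 to 16.9 CPM), and was at 1.03 without that library. *Myc* (-2.06) was at 53.8 CPM in WT CTR replicate 1 and 3.33 to 6.98 CPM in the other 6 libraries, so that it was at 0.37 without that library.

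*Dusp1* and *Maff* were the only 2 of the 32 higher genes with a promoter entry that held the full cyclic AMP response element TGACGTCA, the site of CREB. It was found in 2.96% of the 10186 tested genes with an entry and 1.55% of the 32851 promoters searched. Capitals mark this element and the E-box CACGTG, which was in 10 of these 32 genes (31.2%), 3 of 17 lower genes (17.6%), 9.84% of tested genes and 6.02% of the promoters searched. The regions are chr17:26508473-26508722 on the - strand for *Dusp1* and chr15:79347270-79347519 on the + strand for *Maff*, for which 3 starts are listed and the one with the element is shown. Both motifs read the same on either strand.
Dusp1: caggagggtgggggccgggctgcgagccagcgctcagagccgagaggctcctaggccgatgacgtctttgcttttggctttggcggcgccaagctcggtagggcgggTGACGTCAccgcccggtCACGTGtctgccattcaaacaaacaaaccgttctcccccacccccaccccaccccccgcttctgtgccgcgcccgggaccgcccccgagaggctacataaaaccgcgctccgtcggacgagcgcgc
Maff: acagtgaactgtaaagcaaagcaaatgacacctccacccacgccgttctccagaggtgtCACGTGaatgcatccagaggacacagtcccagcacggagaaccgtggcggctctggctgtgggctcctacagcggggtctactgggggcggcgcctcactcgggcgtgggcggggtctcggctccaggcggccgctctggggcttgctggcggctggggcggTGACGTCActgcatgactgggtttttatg
For comparison, *Orm2* (chr4:63362199-63362448, + strand) held a C/EBP site, searched as TTGCNNAA on either strand, which was in 9.38% of tested genes.
Orm2: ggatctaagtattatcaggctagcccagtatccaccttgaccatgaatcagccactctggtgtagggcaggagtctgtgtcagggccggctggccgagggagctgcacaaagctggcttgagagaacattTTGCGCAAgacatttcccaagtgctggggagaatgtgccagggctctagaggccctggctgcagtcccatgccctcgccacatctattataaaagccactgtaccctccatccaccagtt
A match describes these letters and is no measure of binding. The full palindromic glucocorticoid response element was in 0 of the 32 windows and in 2 of the 10186 tested genes.

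Genes known to answer to glucocorticoids, the adrenal hormones of fasting and stress, had positive fold changes in 20 of 23 cases. Of these, 3 were called higher (*Fkbp5*, *Dusp1* and *Mt1*) and 0 lower, 12 had an unadjusted p under 0.05 in the higher direction and 0 in the lower, and the median was 0.58 (0.59 without WT CTR replicate 3). *Dusp1*, *Mt1* and *Mt2* also stand on lists described above. *Lcn2*, described with the acute phase genes, stands on this list, and *Tat* also stands on the urea cycle and nitrogen list. The counts of these lists are therefore not independent. *Fkbp5*, a co-chaperone that damps the glucocorticoid receptor (ENSMUSG00000024222, chromosome 17, 28399094 to 28517527), was at 77.6, 126 and 137 CPM in WT CTR and 316, 264, 363 and 310.5 CPM in WT noCys. It rose by 1.46 ± 0.30 (adjusted p = 0.0305 by edgeR), with a gap between the groups. *Zbtb16*, another target, was at 1.89 and not called by edgeR (adjusted p = 0.0784), but was by DESeq2 and limma-voom. Without WT CTR replicate 3 it was at 2.73 (adjusted p = 0.0659 by edgeR). It was at 4.24, 11.4 and 28.1 CPM in WT CTR and 36.8 to 65.2 CPM in WT noCys. *Tat*, tyrosine aminotransferase, was at 1238, 2499 and 2337 CPM and at 4791, 5225, 5110 and 4745 CPM, a difference of 1.29 that was not called, while *Igfbp1*, an IGF-binding protein raised in fasting, was at 2.001. WT CTR replicate 1 was the lowest control for *Fkbp5*, *Zbtb16*, *Tat* and *Igfbp1*. *Zbtb16*, *Tat* and *Igfbp1* were chosen after their values were seen.

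Of 27 urea cycle and nitrogen genes 23 had a positive fold change. Of these 27, 1 was called higher, alanine aminotransferase *Gpt*, 13 had an unadjusted p under 0.05 in the higher direction and 1 in the lower, and the median was 0.45 (0.45 without WT CTR replicate 3). *Gpt* was at 381, 467 and 427 CPM in WT CTR and 560, 544, 552 and 578 CPM in WT noCys, a small rise of 0.39 ± 0.09 (adjusted p = 0.0478 by edgeR) with no overlap. Among those not called, and chosen after their values were seen, argininosuccinate lyase (*Asl*) was at 0.70 and serine dehydratase (*Sds*) at 1.00. Of 30 fasting and glucose genes 20 had a positive fold change, 6 had an unadjusted p under 0.05 in the higher and 1 in the lower direction, and the median was 0.13 (0.16 without WT CTR replicate 3). The 1 called was *Sik1*, a kinase induced by cyclic AMP that restrains CREB coactivators. It was at 12.4, 17.8 and 23.0 CPM in WT CTR and 50.1, 75.01, 57.8 and 84.2 CPM in WT noCys, a rise of 1.92 ± 0.39 (adjusted p = 0.0307 by edgeR). *Pck1*, the rate-limiting enzyme of gluconeogenesis, was at 0.52 and not called (adjusted p = 0.117 by edgeR). The glucose transporter *Slc2a1*, low in hepatocytes, rose by 1.16 (adjusted p = 0.0323 by edgeR), from 7.09 to 13.1 CPM in WT CTR to 20.5 to 26.7 CPM in WT noCys. *Por*, which passes electrons to the cytochromes P450, was the 1 call among 22 xenobiotic genes. It was at 354, 493 and 521 CPM in WT CTR and 963, 1197, 873 and 969 CPM in WT noCys, a rise of 1.13 ± 0.19 (adjusted p = 0.0152 by edgeR) that was called in 4 of the 7 leave-outs.

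The genes that fell belonged to several functions. *Spon2* (ENSMUSG00000037379, chromosome 5, 33198184 to 33218455), a secreted matrix protein, had the smallest adjusted p of all named genes. It was at 15.7, 13.3 and 13.6 CPM in WT CTR and 5.43, 6.53, 4.84 and 3.63 CPM in WT noCys, and fell by 1.49 on the log2 scale (SE 0.21, adjusted p = 0.00953 by edgeR). It was called in all 7 leave-outs and, without WT CTR replicate 3, was at -1.52 (adjusted p = 0.0474 by edgeR). *Nav2*, a cytoskeletal and guidance protein (chromosome 7, 48908716 to 49610090, overlapping Gm2788), was at 66.7, 43.8 and 60.3 CPM and at 19.9, 18.0, 18.1 and 17.6 CPM. The 4 WT noCys libraries nearly coincided, and it fell by 1.62 on the log2 scale (SE 0.26, adjusted p = 0.0119 by edgeR). The tight-junction gene *Cldn1* was at 31.0, 33.7 and 30.8 CPM and at 13.7, 18.2, 10.6 and 10.1 CPM, at -1.29 (adjusted p = 0.039 by edgeR). With N-cadherin (*Cdh2*, -0.47, adjusted p = 0.0475 by edgeR, overlapping Gm15485) it made 2 calls among 18 junction genes, of which 6 had an unadjusted p under 0.05 in the lower and 2 in the higher direction (median -0.17). *Cldn2*, chosen after its values were seen, was at -0.72 and not called.

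*Cyp4a12a*, a male-biased fatty acid omega-hydroxylase, was at 138, 146 and 180 CPM in WT CTR and 36.5, 96.6, 46.5 and 52.3 CPM in WT noCys, at -1.42 (adjusted p = 0.0393 by edgeR), with reads that may be shared with its paralog *Cyp4a12b*. It was the 1 call among 28 male-biased genes kept up by growth hormone and STAT5, of which 5 had an unadjusted p under 0.05 in the lower and 0 in the higher direction (median -0.19, and -0.26 without WT CTR replicate 3). The 5 became 4 without WT CTR replicate 3 and 2 without WT noCys replicate 1. The STAT5 targets *Cish* (-1.61) and *Socs2* (-0.89) and the male steroid dehydrogenase *Hsd3b5* (-1.19), chosen after their values were seen, were not called, and *Cish* was at 38.3 CPM in WT CTR replicate 1 against 3.49 to 7.90 CPM in the other 6 libraries. *Cish* was at -0.32 and *Socs2* at -0.53 without that control library. *Cyp4a12a* was also the 1 call among 34 PPAR-alpha and fatty acid oxidation genes, of which 1 and 3 had such a p in the higher and lower direction (median 0.09). Other falls were the lactate and ketone transporter *Slc16a1* (-0.74, adjusted p = 0.0208 by edgeR), the alcohol dehydrogenase *Adh4* (-0.74, adjusted p = 0.0497), the co-receptor *Nrp1* (-0.77, adjusted p = 0.0478), the interferon-induced GTPase *Ifi47* (-1.21, adjusted p = 0.0393) and the adiponectin receptor adaptor *Appl1* (-0.71, adjusted p = 0.0261). *Tsc22d1*, a leucine zipper regulator, was at 133, 93.8 and 84.9 CPM in WT CTR and 50.6 to 65.4 CPM in WT noCys (-0.86, adjusted p = 0.0235 by edgeR). Stellate cell markers summed to 569 to 682 CPM in WT CTR and 393 to 597 CPM in WT noCys, a range that overlaps. Of the 12 markers tested 0 were called by edgeR, DESeq2 or limma-voom, 10 had a negative fold change, 3 had an unadjusted p under 0.05 in the lower and 0 in the higher direction, and the median was -0.15 (-0.33 without WT CTR replicate 3). Their part in these falls was not tested. In bulk liver, fewer cells of a type and less RNA per cell cannot be told apart.

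Genes of cholesterol synthesis and uptake had mostly negative fold changes and 0 calls by edgeR. Of 27 tested, 10 had an unadjusted p under 0.05 in the lower and 0 in the higher direction, 22 had a negative fold change, and the median was -0.28 (-0.27 without WT CTR replicate 3). *Hmgcs1*, which makes HMG-CoA, was at 184, 113 and 136 CPM in WT CTR and 73.5, 101, 58.9 and 59.96 CPM in WT noCys. All 4 WT noCys values were below the 3 controls, at -0.98 (adjusted p = 0.0848 by edgeR). *Stard4*, a sterol carrier, was at -0.57. DESeq2 called 1 and limma-voom 4 genes of this list lower, and neither called any higher.

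Further genes called higher by edgeR were mostly chosen for naming after their values were seen. *Kdm6b*, a histone demethylase that removes methyl groups from H3K27, was at 19.2 CPM in all 3 WT CTR libraries and 29.7 to 36.0 CPM in WT noCys (0.74, adjusted p = 0.0152 by edgeR). The ubiquitin ligase *Ubr2*, which reads protein N-termini, was at 52.6 to 56.1 CPM and 78.3 to 86.9 CPM (0.61, adjusted p = 0.0119 by edgeR). Both groups were tight for these genes, and none of the libraries overlapped. *Klf11*, a transcription factor, rose by 1.03, the nuclear receptor *Ppard* by 0.88, the MAX-binding repressor *Mnt* by 0.72 and the pro-apoptotic BH3 gene *Bbc3* by 1.06. *Serping1*, the plasma inhibitor of complement C1, rose by 0.51 and the cytokine receptor *Il17ra* by 0.57. *Rhbdf2*, needed for release of TNF and EGF receptor ligands, rose by 1.27 (adjusted p = 0.0136 by edgeR), from 4.30 to 6.19 CPM in WT CTR to 11.1 to 13.7 CPM in WT noCys. The GTPase *Rnd1* (1.44) and the nucleotide receptor *P2ry2* (1.36) rose as well.

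The circadian clock genes, which can reveal a shift in feeding or sampling time, gave 0 calls by edgeR among 19, with 7 at an unadjusted p under 0.05 in the higher and 3 in the lower direction (median 0.07). Without WT CTR replicate 3, and likewise without WT noCys replicate 1, 4 were higher and 3 lower at that p. DESeq2 called 1 higher and 2 lower, and limma-voom 2 higher and 2 lower. *Clock* was at -0.47 and *Bhlhe41*, a repressor of the clock, at 21.1, 16.9 and 14.6 CPM in WT CTR and 6.48, 7.66, 5.03 and 6.75 CPM in WT noCys (-1.44, adjusted p = 0.0893 by edgeR). *Nr1d1*, chosen after its values were seen, was at -0.84. The groups did not overlap for these 3 genes. The labels used here give no time of sampling.

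Genes of sulfur amino acid metabolism gave 0 calls by edgeR. Of 16 methionine cycle and transsulfuration genes 0 were called, 3 had an unadjusted p under 0.05 in the higher and 1 in the lower direction, and the median was 0.05. *Mat1a*, which makes S-adenosylmethionine, was at 2786, 3706 and 3743 CPM in WT CTR and 5480, 4849, 6346 and 4355 CPM in WT noCys (0.62, adjusted p = 0.179 by edgeR). *Gnmt*, which spends it, was at 0.50. *Cbs*, chosen after its values were seen, was at 375 to 440 CPM in WT CTR and 375 to 430 CPM in WT noCys, ranges that nearly coincide. Of 16 genes of cysteine catabolism, taurine and sulfide 0 were called (2 higher and 1 lower at an unadjusted p under 0.05, median 0.04), and *Got1*, the cytosolic aspartate aminotransferase, was at 1.05. Of 18 glutathione synthesis and recycling genes 0 were called, 2 were higher and 1 lower at that p (0 and 2 without WT CTR replicate 3), and the median was -0.02. Within that list the peroxidase *Gpx1* was at 0.31, the reductase *Gsr* at -0.35 and, chosen after its values were seen, *Gclc*, the rate-limiting ligase, at -0.38. Limma-voom called 3, 2 and 0 genes of these 3 lists, all higher, and DESeq2 called 0 of them. Coenzyme A synthesis, which consumes cysteine, gave 0 calls among 14 genes by edgeR, DESeq2 and limma-voom, with 1 higher and 1 lower at that p.

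The amino acid and oxidative stress genes that the study follows gave 0 calls by edgeR in WT. Both lists were chosen by the study on data that include these samples. DESeq2 and limma-voom called 0 of the ISR genes. Of 13 ISR genes 1 had an unadjusted p under 0.05, *Gdf15*, a circulating stress hormone, and the median was 0.13 (0.14 without WT CTR replicate 3). *Gdf15* was at 0.847, 1.55 and 2.44 CPM in WT CTR and 4.84, 8.33, 7.598 and 2.67 CPM in WT noCys (1.83, adjusted p = 0.197 by edgeR). Asparagine synthetase, *Asns*, was at 1.91, 1.62 and 1.16 CPM and at 6.18, 4.17, 0.950 and 1.86 CPM, so that only replicates 1 and 2 of WT noCys lay above the controls. *Psat1*, *Mthfd2*, *Pycr1* and *Slc7a1*, of serine, folate and proline synthesis and cationic amino acid uptake, were under 2 CPM in all 7 libraries. *Atf5* (0.02), *Slc3a2* (0.13), *Trib3* (-0.37) and *Ddit3* (-0.25, overlapping *Mars*) overlapped between groups. Of 25 genes of the wider ATF4 pathway 0 were called by edgeR, 2 by DESeq2 and 3 by limma-voom, and 7 had an unadjusted p under 0.05, all higher, with a median of 0.16. Among these, *Sesn2*, an inhibitor of mTORC1, was at 6.88, 11.8 and 11.4 CPM in WT CTR and 21.6, 17.3, 20.9 and 23.2 CPM in WT noCys (1.05, adjusted p = 0.144 by edgeR), and *Gpt2* was at 0.51, and DESeq2 and limma-voom called both. *Ddit4*, chosen after its values were seen and also induced by glucocorticoids, was at 2.59 and not called by edgeR.

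The 8 OSR genes leaned lower. Of these, 7 had a negative fold change, 3 had an unadjusted p under 0.05 in the lower direction, 0 were called by edgeR, 1 by DESeq2 and 2 by limma-voom, all lower, and the median was -0.34 (-0.29 without WT CTR replicate 3). *Gstm4*, a glutathione S-transferase, was at 46.9, 42.0 and 39.6 CPM in WT CTR and 31.5, 35.3, 27.3 and 29.7 CPM in WT noCys (-0.47, adjusted p = 0.0941 by edgeR). Every WT noCys library lay below every WT CTR library for *Gstm4* and for *Gstm2* (-0.65). *Gstm1* was at -0.33, *Srxn1*, which repairs peroxiredoxins, at -0.24 and *Nqo1*, a quinone reductase, at 0.28. Paralogs of both glutathione S-transferase families are alike in sequence, so their counts are uncertain. Among 28 NRF2 regulators and targets the 1 call was *Maff*, and the median was -0.01. Aminoacyl-tRNA synthetases (0 of 21 called, median 0.00), heat shock genes (0 of 16) and chaperones of the unfolded protein response (0 of 26) gave 0 calls by DESeq2 and limma-voom too, and had 1, 0 and 1 genes with an unadjusted p under 0.05 in the higher and 1, 0 and 2 in the lower direction.

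Lipid and bile acid lists gave isolated values. Of 23 fatty acid and triglyceride synthesis genes 0 were called by edgeR, and 2 were higher and 3 lower at an unadjusted p under 0.05 (2 and 5 without WT CTR replicate 3). The elongase *Elovl5* was at 821, 692 and 575 CPM in WT CTR and 362, 377, 384 and 435 CPM in WT noCys (-0.84, adjusted p = 0.0804 by edgeR), and *Dgat2*, which completes triglycerides, was at 0.39. Both were without overlap, in opposite directions. Of 26 bile acid genes 0 were called by edgeR (2 higher and 5 lower at that p, or 2 and 3 without WT CTR replicate 3), with *Cyp39a1*, an oxysterol hydroxylase, at 1.27 and *Hsd3b7*, of the same synthesis route, at -0.71. Of 20 stress hormone and IGF1 genes 0 were called by edgeR (2 higher and 1 lower at that p), and of 14 female-biased growth hormone genes 0 (3 higher and 0 lower, or 1 and 0 without WT CTR replicate 3). In the order fatty acid, bile acid, stress hormone and female-biased lists, DESeq2 called 1, 1, 0 and 1 genes higher and 1, 1, 0 and 0 lower, and limma-voom 1, 3, 1 and 0 higher and 2, 1, 1 and 0 lower.

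**Figure D4:**
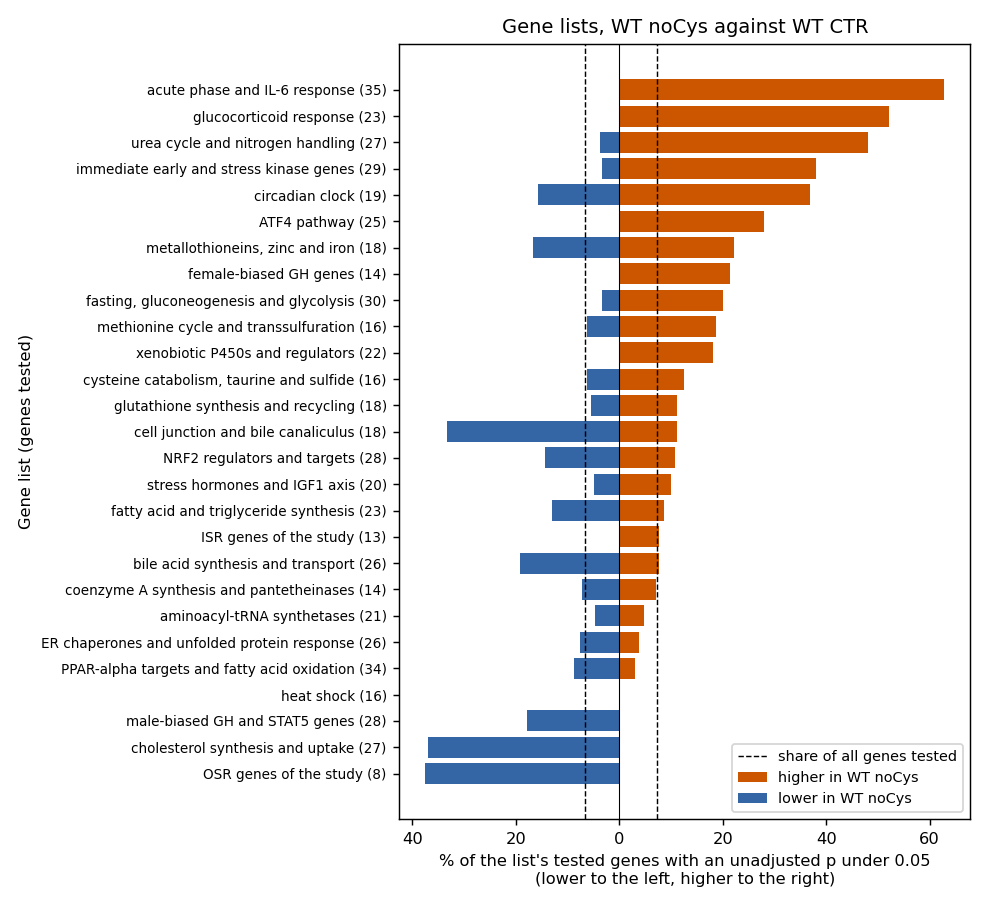
Percent of the tested genes of each pathway list (number in brackets) with an unadjusted p under 0.05 in WT noCys against WT CTR, lower to the left in blue and higher to the right in orange. Dashed lines give the shares of all genes, 6.66% and 7.26%. The RNA, erythroid and cell type marker lists are not drawn. Among the lists drawn, the acute phase list (22 of 35 higher) has the longest bar to the right and the OSR (3 of 8) and cholesterol (10 of 27) lists the longest to the left.

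The same removal in KO mice was set beside the WT values. The KO comparison (3 KO noCys against 4 KO CTR libraries) shares no library with the WT one, and 2906 genes were called in it (20.2%). The test of the difference, KO change minus WT change, uses the WT libraries again. In it 1069 genes were called (7.44%), among them 25 of the 56 genes called higher in WT, all with a smaller change in KO, and 6 of the 22 called lower with RNA genes left out, counts that are a description since the choice of these genes used the WT values. Of the 56 genes called higher in WT, 34 had the same direction in KO (60.7%, against 54.5% of all 7024 genes with a positive WT change). In KO 11 of the 56 were called in that direction and 6 in the opposite one, against 864 and 533 of the 7024. The median of the 56 was 0.11 in KO and 1.00 in WT. Of those 22 lower genes, 19 had the same direction (86.4%, against 53.6% of all 7344 genes with a negative WT change). In KO 14 of the 22 were called in it and 2 in the opposite one, against 845 and 663 of the 7344. The median of the 22 was -0.59 in KO and -0.76 in WT. *Spon2*, *Nrp1*, *Tsc22d1*, *Adh4*, *Slc16a1*, *Dtx4*, *Ifi47* and *Cyp4a12a* were among those that also fell in KO. *Nav2* (-0.23) and *Cldn1* (-0.23) were not called there.

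Several acute phase genes had fold changes of opposite sign in WT and KO. Of the 4 called higher in WT, *Orm1* and *Orm2* were called lower in KO. *Hpx* (0.43) and *Itih4* (-0.27) were not called in KO. Of the 35 genes 13 were called lower and 2 higher in KO (all genes, 9.59% and 10.6%), with a median of -0.45. In KO CTR *Orm1* reached 830, 696, 718 and 1151 CPM, and in KO noCys 373, 248 and 257 CPM, where it fell by 1.54 on the log2 scale (adjusted p = 0.000565 by edgeR), and the 2 changes differed by -2.83 (adjusted p = 0.000233 by edgeR). For *Orm2* the KO CTR values were 21.8, 29.8, 19.0 and 53.8 CPM and the KO noCys values 8.91, 2.48 and 2.64 CPM, and its difference was -7.04 (adjusted p = 0.00134 by edgeR). For *Saa1* and *Saa2* the differences were -7.94 and -9.94 (adjusted p = 0.00634 and 0.00338 by edgeR). The KO CTR libraries held *Saa1* at 142, 78.0, 87.1 and 718 CPM, the KO noCys libraries at 45.1, 11.3 and 27.3 CPM, and *Saa2* at 49.4, 24.0, 44.1 and 358 CPM and at 4.17, 4.67 and 9.06 CPM. KO CTR replicate 4 stood above the other 3. Without WT noCys replicate 1 the differences were -6.49 and -7.71, the smallest of the 14 fits that each left out 1 library, and both were called in all 14. *Hpx* did not pass this test (-0.89, adjusted p = 0.17). *Dusp1* differed too, at 2.28 in WT and -0.75 in KO (adjusted p = 0.00473 by edgeR), while the differences for *Mt1* (-2.34, adjusted p = 0.0688), *Maff* (-1.74, adjusted p = 0.0604) and *Fkbp5* (-1.14, adjusted p = 0.0976) were not called. Conversely, 12 of 13 ISR genes and all 8 OSR genes were called higher in KO, with medians of 2.38 and 1.74, and 24 of 27 cholesterol genes lower, with a median of -1.65. The study chose the ISR and OSR genes on data that include these KO libraries, so their KO calls are a description. In WT the cholesterol median had the same sign at -0.28, and *Hmgcs1* differed by -1.77 (adjusted p = 0.00845 by edgeR). Scaling by library totals alone moved the median difference of all genes to 0.16 and the share of higher calls from 47.9% to 72.6%.

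**Figure D5:**
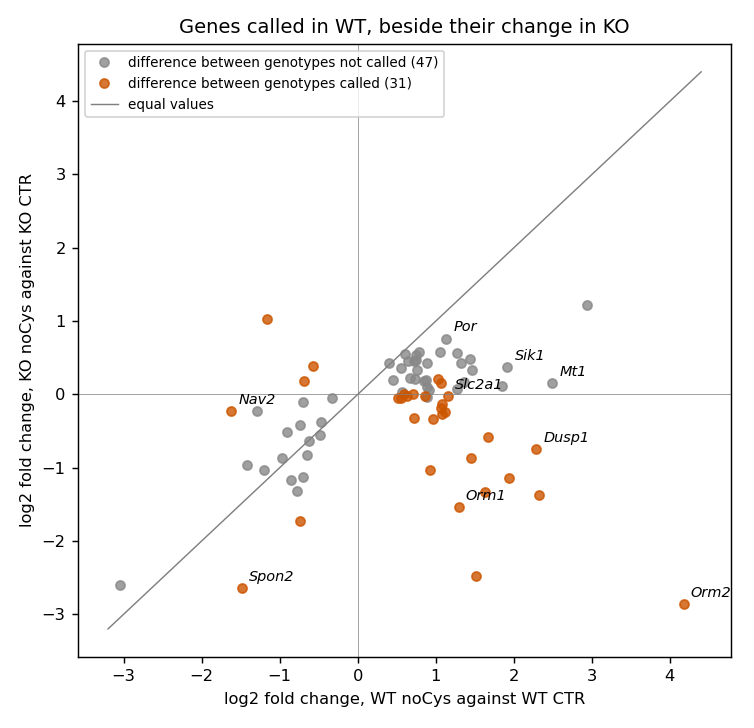
Log2 fold change of cysteine removal in WT (x axis) and in KO (y axis) for the 78 genes called in WT with RNA genes left out. Each point is 1 gene, orange where the difference between genotypes was called, and the line marks equal values. The higher genes centre on a KO median of 0.11, with *Orm1* and *Orm2* below 0, and the lower genes on a KO median of -0.59.

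Removal of tryptophan in WT mice offers a second diet that lacks 1 amino acid, with 2 libraries only. Between WT noCys and WT noTrp 23 genes were called by edgeR (0.16%), 12 higher and 11 lower without cysteine, and 1398 had an unadjusted p under 0.05. DESeq2 called 126, and limma-voom and edgeR on the 2 groups alone called 0 (576 and 1101 at an unadjusted p under 0.05). Among the named genes *Orm1* was called, at 529 and 381 CPM in WT noTrp and 929 to 2666 CPM in WT noCys (1.78, adjusted p = 0.0228 by edgeR). Others, chosen after their values were seen, were the cytokine inhibitor *Socs3* (-1.83), the immediate early nuclear receptor *Nr4a1* (-4.19), the thioredoxin-binding *Txnip* (-1.89) and the leptin receptor *Lepr* (-2.06), all lower without cysteine. Without WT noTrp replicate 1 only 2 of the 23 genes were still called, and *Nr4a1* was at -1.32 and *Socs3* at -1.14. Without replicate 2, 11 were, and *Orm1* was not called without either. *Saa1* (5.61) and *Orm2* (4.02) were not called.

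The changes against WT CTR under both diets share the 3 control libraries, so they are only set side by side. *Dusp1* was at 2.28 without cysteine and 2.52 without tryptophan, *Sik1* at 1.92 and 2.64, *Maff* at 1.85 and 2.56. The 2 WT noTrp libraries lay far apart for these 3 genes, at 240.3 and 72.5 CPM for *Dusp1*, 173 and 47.3 CPM for *Sik1* and 73.1 and 16.4 CPM for *Maff*, and for *Sik1* and *Maff* the second lay below every WT noCys library. *Fkbp5* was at 1.46 and 1.56, *Mt1* at 2.49 and 2.06 and *Por* at 1.13 and 1.53. On the lower side *Nav2* was at -1.62 and -1.54, *Cldn1* at -1.29 and -1.62, *Spon2* at -1.49 and -2.72 and *Cyp4a12a* at -1.42 and -2.76. The near-equal *Nav2* values depended on single libraries. Its noCys minus noTrp value was -0.09, and ran from -0.60 to 0.68 when 1 library was left out (0.68 without WT noTrp replicate 2). Of the acute phase genes, *Orm1* was at 1.29 and -0.49, *Orm2* at 4.17 and 0.15, *Saa1* at 4.72 and -0.89, *Orm3* at 1.70 and 1.25 and *Hpx* at 1.32 and 0.62. Between the diets *Orm1* alone of these 5 was called.

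Markers of other liver cells gave 0 calls by edgeR, DESeq2 and limma-voom. Endothelial markers summed to 238 to 300.3 CPM in WT CTR and 238 to 323 CPM in WT noCys, cholangiocyte markers to 28.4 to 44.4 and 34.9 to 59.1 CPM, and lymphocyte markers to 8.83 to 13.9 and 8.55 to 27.6 CPM. Erythroid genes summed to 172 to 372 and 197 to 395 CPM, and adipocyte markers, with *Lep* at 0, to 14.3 to 21.3 and 19.8 to 29.4 CPM. The 12 Kupffer cell and macrophage genes all had positive fold changes (median 0.48, and 0.29 without WT CTR replicate 3), of which 3 had an unadjusted p under 0.05, and 0 without WT CTR replicate 3 or without WT noCys replicate 1. Hepatocyte markers had a median of 0.27, 12 of 13 were positive, and 4 were higher and 0 lower at that p. Of these edgeR called 0, DESeq2 1 and limma-voom 2, all higher. *Pck1*, described above with the fasting genes, stands on this list and was called by DESeq2 and limma-voom. Of 6 erythroid genes 0 had such a p, and without WT CTR replicate 3 there were 3 higher and 1 lower.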

How the data were processed

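Poly(A) RNA from mouse liver was sequenced by the authors, and 21 libraries were deposited as 1 table of read counts per gene, without normalization. Per the submitters' processing notes, reads were aligned with HISAT2 2.1.0 and counted with HTSeq 0.11.0 on GRCm38. The annotation release and strand setting are not given in the sources used here. Of the table's columns, 1 matched no sample and was not used. Reads of overlapping genes or near-identical paralogs may be lost or shared in such counts.

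The 14370 of 46078 genes that passed edgeR's filter (minimum count 10, minimum total 15, groups given) were fitted with edgeR 4.0.16 (R 4.3.3) over all 6 groups of libraries, with TMM scaling and the quasi-likelihood test. All p-values are two-sided and adjusted by Benjamini-Hochberg over all genes tested, called under 0.05. CPM values are counts over each library's total scaled by its TMM factor, in the usual CPM unit. Library totals of 9410589 to 20644644 set the precision of low values. DESeq2 1.42.0, limma-voom (limma 3.58.1), other scalings, filters and sample sets, and leaving out each library were tried. Same-numbered libraries of WT CTR and WT noCys deviated together with correlations of 0.017, 0.031 and 0.216, so the numbers were not used as pairs.

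Named genes were the 12 largest rises and 12 largest falls among called genes with a mean log2 CPM over WT libraries above 1 and no overlap (predicted and RNA genes passed over), genes called without WT CTR replicate 3, *Cth*, the ISR and OSR genes, the called members of each list or else up to 2 with the lowest p, and *Orm*, *Saa* and *Mt* neighbours. The members and the 39 gene lists were chosen with earlier results of these data known. Promoter sequences are from RefSeq (GRCm38.p6), with chromosome 18 left out, and 32 of 56 higher and 17 of 39 lower genes were matched. The cysteine content of encoded proteins was not analysed here. Some single-gene results are not reported here.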

Additional observations from a re-analysis of the deposited data

Results flagged for a closer look

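Of the 102 genes examined, 3 had 1 WT noCys library far from the other 3 by Dixon's test on log2 CPM (critical value 0.829), which flags about 1 in 20 groups of this size by chance alone. On that scale *Saa2*, *Saa3* and *Lcn2* were not flagged, although replicate 1 stood far above the rest in CPM. *Nrp1* was at 95.1 CPM in replicate 4 against 72.2 to 75.1 CPM. *Orm3* was at 5.52 CPM in replicate 2 against 12.3 to 14.5 CPM. *Slc7a1* was at 0.285 CPM in replicate 3 against 0.700 to 0.788 CPM.

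For 37 of these genes the change without cysteine differed between KO and WT at an adjusted p under 0.05 (edgeR, over all genes). Of all genes tested, 7.44% were called in this test. Many of the genes examined were named for their WT change or after their values were seen. That WT change enters the difference with the opposite sign. The study chose the ISR and OSR genes on data that include these KO libraries. The count is therefore a description and cannot be weighed against the share of all genes. The values below are the KO change minus the WT change on the log2 scale. Genes with a positive WT change that was smaller or turned negative in KO were *Saa2* (-9.94), *Saa1* (-7.94), *Orm2* (-7.04), *Saa3* (-4.07), *Dusp1* (-3.03), *Orm1* (-2.83), *Hp* (-1.83), *Saa4* (-1.76), *Itih4* (-1.36), *Slc2a1* (-1.18), *Gpx1* (-1.06), *Ier2* (-0.89), *Pck1* (-0.87), *Klf11* (-0.81) and *Serping1* (-0.57). Genes whose negative WT change was larger in KO were *Hmgcs1* (-1.77), *Stard4* (-1.69), *Spon2* (-1.16) and *Adh4* (-0.99). Genes with a higher change in KO were *Psat1* (4.12), *Mthfd2* (3.75), *Myc* (3.13), *Slc7a1* (2.94), *Gstm3* (2.91), *Pycr1* (2.91), *Trib3* (2.44), *Atf5* (2.21), *Gstm1* (2.13), *Gsta2* (2.02), *Gstm4* (1.93), *Slc3a2* (1.70), *Nqo1* (1.62), *Gstm2* (1.51), *Nav2* (1.40), *Srxn1* (1.38), *Ddit3* (1.25) and *Gsr* (0.74). When each of the 14 libraries of this test was left out in turn, all 37 kept their direction, 19 were called each time, and 2 shrank by more than 1.5 times on the log2 scale. These 2 were *Myc*, at 0.69 and not called (adjusted p = 0.579 by edgeR) without WT CTR replicate 1 and called in 3 of the 14 fits, and *Saa3*, at -2.21 without WT noCys replicate 1. Without WT CTR replicate 3, 781 genes in all were called in this test, against 1069 with it.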

How the results depend on the processing

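For WT noCys against WT CTR, 95 genes were called by edgeR, 305 by DESeq2, 533 by limma-voom, 396 by edgeR on the 2 groups alone, 269 without the filter on low counts and 47 after removal of ribosomal and small non-coding RNA genes. That removal kept mitochondrial transfer RNA genes. Leaving out each library in turn left 1 (without WT CTR replicate 3) to 53 calls. Without WT CTR replicate 3, DESeq2 called 146, limma-voom 234 and edgeR on the 2 groups 216. With the replicate number as a block 14 genes were called, but the numbers share no known pairing and same-numbered libraries correlated at 0.017 to 0.216. Of the 95 genes, 95 kept their direction under DESeq2, limma-voom and the block, and 88 of the 93 tested did without WT CTR replicate 3, the exceptions being RNA genes. Of the 38 called genes followed singly through these settings, 0 reversed under any alternative. The RNA genes and pseudogenes named in the text were not among these 38.

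For the difference between KO and WT, 1069 genes were called, and 430 to 1399 when each library was left out (430 without KO noCys replicate 3), 2179 by limma-voom and 1878 by limma-voom without WT CTR replicate 3. The block gave 817 calls. For WT noCys against WT noTrp, 23 genes were called, and 9 to 64 when each library was left out (10 without WT noTrp replicate 1, with 2 of the 23 genes among them, and 64 without replicate 2, with 11 of the 23), 126 by DESeq2 (122 without WT CTR replicate 3), 50 without the filter (58 without WT CTR replicate 3), and 0 by limma-voom and by edgeR on the 2 groups, with or without that control. The block gave 20 calls. Scaling by library totals moved the higher share there from 52.2% to 22.2% and the median of all genes to -0.12. The cause of these shifts was not tested. Medians of 4 of 39 lists moved by more than 1 SD between libraries (the pooled SD of the list's median log2 CPM within the WT groups), among them bile acid genes (0.07, and -0.03 without WT CTR replicate 3) and erythroid genes (0.20 and 0.76). Only 2 WT noTrp libraries limit that comparison.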

Other observations

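Several of the named genes had KO CTR levels outside the WT CTR range, on the side of WT noCys. *Mt1* was at 584, 413, 517 and 936 CPM in the 4 KO CTR libraries, against 72.1 to 199 CPM in WT CTR and 548 to 901 CPM in WT noCys. *Mt2* was at 198 to 534 CPM in KO CTR, against 15.1 to 76.2 and 225 to 684 CPM. *Nav2* was at 20.5 to 36.1 CPM in KO CTR, against 43.8 to 66.7 and 17.6 to 19.9 CPM, and *Spon2* at 7.78 to 9.13 CPM, against 13.3 to 15.7 and 3.63 to 6.53 CPM. *Fkbp5* lay between the WT groups, at 161 to 218 CPM in KO CTR, and *Dusp1* was at 50.6 to 88.0 CPM, which overlaps the lowest WT noCys library (71.2 CPM). These levels were chosen after their values were seen, and the difference between KO CTR and WT CTR was not tested here.

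Of 903 pseudogenes tested, 8 were called higher (0.886%) and 1 lower (0.111%) in WT noCys, against 0.39% and 0.271% of all genes tested, and the 8 were all processed copies, such as Rps24-ps2 (1.67), Tpt1-ps6 (1.27) and Uqcrh-ps1 (1.52). The change of Uqcrh-ps1 was -2.48 in KO. Whether these counts come from the copies or from their parent genes was not tested.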
